A study of Mus musculus with 19 samples.

Results

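The antioxidant enzymes described here are 10 genes, Sod1, Sod2, Cat, Gpx1, Gpx3, Gpx4, Prdx3, Prdx5, Txn2 and Nqo1, chosen by name from the 56066 genes of a table of mouse heart expression values. All 10 passed the filter on low values, as did 14812 genes in all. The study sequenced RNA from whole hearts of wild-type (WT) mice at postnatal day 1 (P1, 3 libraries), P7 (5 libraries) and P21 (4 libraries), and from PDK1 conditional knockout (cKO) hearts at P7 (3 libraries) and P21 (3 libraries). The Cre line that made the deletion, the sex of the mice and whether each library came from its own animal are not given in the sources used here, so p-values measure the spread between libraries. One more P21 library, number 63, is cKO by its genotype label but not by its title, and it was left out of every group.

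Superoxide leaks from the respiratory chain, and superoxide dismutases turn it into hydrogen peroxide. Catalase, the glutathione peroxidases and the peroxiredoxins then remove the peroxide. The glutathione peroxidases and peroxiredoxins do so with electrons that come from NADPH by way of glutathione or thioredoxin. The heart is rich in mitochondria, and after birth its muscle cells move from glucose towards fatty acid oxidation. Sod2, Prdx3 and Txn2 act in the mitochondrial matrix, Sod1 mainly in the cytosol and catalase mainly in peroxisomes, Prdx5 is found in several compartments, and Gpx3 is secreted.

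Levels are in TPM, a length-scaled share of the transcripts of a library that holds no read depth; how deeply each library was sequenced is unknown. A change is a difference of log2(TPM + 1) from a limma fit over 18 libraries, and a gene is called higher or lower where its Benjamini-Hochberg adjusted p over all 14812 genes is under 0.05. Because TPM are shares, a change in a few abundant genes moves all others. The median of all genes tested moved by -0.47 (log2) from P7 to P21 in WT hearts and by 0.22 between P21 cKO and P21 WT. It moved by -0.0011 between P1 and P7 in WT hearts and by -0.021 between P7 cKO and P7 WT. Transcripts of the mitochondrial genome held 22.6% to 24.2% of TPM in P21 WT and 20.3% to 20.4% in P21 cKO, against 17.2% to 19.3% in P7 WT. Any part of this share in the move of the median was not tested. Since the median moved, changes are also given relative to the median gene. Calls are also given after median-ratio scaling, which sets each library by its median gene. WT titles come in 2 styles, and the style is a term of the fit. The 3 P1 titles hold an H, 2 P7 WT titles the word heart and 2 P21 WT titles the code B6, while the other 5 WT titles are plain numbers, as cKO titles are apart from their KO. The labels give no strain and do not explain B6, so the P21 WT group joins 2 libraries with that code and 2 without it. In whole hearts, fewer cells of a type and less RNA per cell cannot be told apart.

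The labels do not say which gene PDK1 is. Pdpk1, which encodes the kinase that activates AKT and is one gene known by that name (minus strand of chromosome 17 from 24073680 to 24150924, mm10), had 8.09, 7.98 and 7.95 TPM in P7 cKO hearts. Its P7 WT levels were 11.9 and 11.6 TPM in the libraries with heart in their titles. In the plain-number P7 WT libraries they were 8.09, 7.96 and 9.32 TPM, which overlapped the cKO levels. At P21 the cKO levels were 5.54, 5.55 and 4.95 TPM, and the WT levels ran from 6.17 to 7.65 TPM. The P21 groups did not overlap, but the log2 change of Pdpk1 was -0.15 ± 0.12 (SE, limma adjusted p = 0.366) and after median-ratio scaling -0.38 (adjusted p = 0.016). Defining markers of heart muscle were present in all groups: 10 cardiomyocyte genes summed to between 54187 and 66442 TPM per library, and none of them was at 0.

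The 10 genes lie on 9 chromosomes in mm10, by GENCODE M21, and all 10 are protein coding. Nqo1 lies on chromosome 8 (107388225 to 107403206, minus strand), Sod1 on chromosome 16 (90220754 to 90226329, plus strand) and Gpx4 on chromosome 10 (80047166 to 80056439, plus strand). The RefSeq promoter table (GRCm38.p6) holds 13 windows for these 10 genes, each of 300 bases, from 250 before to 50 after a transcription start. Motifs of 4 kinds were searched on both strands. The core of the antioxidant response element, TGACNNNGC, is the site through which NRF2 acts, and it was in the window of 1 gene, Sod1, and in 12.4% of all 32851 promoter windows. The NRF1 site GCATGCGC was in a window of 1 gene, Gpx4, and in 2.71% of all windows. The FOXO site GTAAACA (3.65% of all windows) and the ERR site TCAAGGTCA (0.423%) were in no window of the 10 genes. No match says only that these letters are not in the window searched. The 250 bases before the start are shown for the genes with a match, and for Nqo1, on which the P21 result turns, with motif matches in capitals (5′ to 3′ on the gene's strand). They are chr16:90220512-90220761 (plus strand) for Sod1, chr10:80053315-80053564 (plus strand) for Gpx4 and chr8:107403206-107403455 (minus strand) for Nqo1.
Sod1: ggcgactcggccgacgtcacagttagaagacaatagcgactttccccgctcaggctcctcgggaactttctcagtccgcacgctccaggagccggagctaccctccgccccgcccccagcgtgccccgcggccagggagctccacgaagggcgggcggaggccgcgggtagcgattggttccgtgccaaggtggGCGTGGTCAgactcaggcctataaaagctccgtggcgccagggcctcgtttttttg
Gpx4: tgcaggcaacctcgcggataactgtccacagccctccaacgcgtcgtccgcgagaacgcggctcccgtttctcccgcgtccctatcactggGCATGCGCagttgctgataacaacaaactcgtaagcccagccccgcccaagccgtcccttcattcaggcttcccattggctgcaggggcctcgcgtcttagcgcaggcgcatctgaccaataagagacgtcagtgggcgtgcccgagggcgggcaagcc
Nqo1: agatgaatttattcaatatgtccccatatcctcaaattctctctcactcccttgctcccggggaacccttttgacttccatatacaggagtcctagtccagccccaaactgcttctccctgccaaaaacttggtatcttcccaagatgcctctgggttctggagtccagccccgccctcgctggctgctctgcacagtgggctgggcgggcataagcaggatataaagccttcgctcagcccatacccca

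The levels of the 10 genes spanned a wide range in every group. In P7 WT, Sod1 was highest by mean, at 547 ± 14.3 TPM (SD, n = 5), and Nqo1 lowest, at 11.8 ± 0.976 TPM. Between them came Sod2, Gpx4, Prdx5, Txn2, Gpx1, Prdx3, Cat and Gpx3 in that order, and the neighbours Sod1 and Sod2, Txn2 and Gpx1, and Cat and Gpx3 overlapped. In P21 WT the order was Sod2, Gpx4, Sod1, Prdx5, Txn2, Prdx3, Gpx1, Gpx3, Cat and Nqo1, where only the neighbours Txn2 and Prdx3, and Gpx3 and Cat, overlapped. In P21 cKO, Gpx4 (546 ± 27.0 TPM, n = 3) stood above Sod2 (502 ± 17.9 TPM), and no neighbours overlapped. The summed TPM of the 10 genes overlapped between P1 WT (2062 to 2463), P7 WT (2143 to 2420) and P21 WT (2107 to 2309), and P21 cKO (2352 to 2399) was above P21 WT. The median of all genes tested was also higher in P21 cKO than in P21 WT, by 0.22 (log2).

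**Figure D1:**
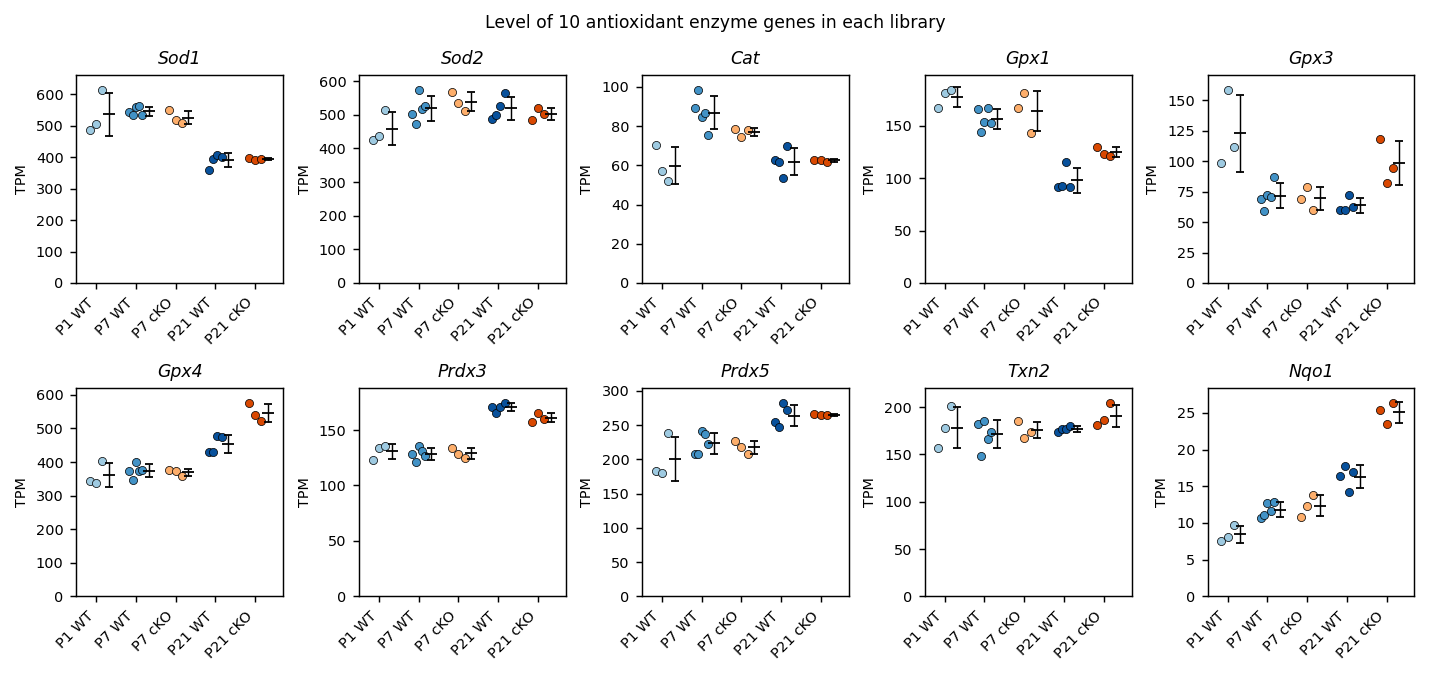
TPM of each of the 10 genes (vertical axis, from 0) in the 18 libraries by group (horizontal axis); points are libraries, and the bars to their right are the mean with its SD. Nqo1 climbs from 7.48 to 9.77 TPM in P1 WT to 23.5 to 26.3 TPM in P21 cKO, and the 3 P21 cKO libraries of Gpx4 and Nqo1 lie above all others.

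Between P1 and P7 in WT hearts, 2 of the 10 genes rose and 1 fell, where 13.8% of all genes tested were called higher and 14.7% lower. The P7 libraries lay fully above the P1 libraries for 13.8% of all genes tested and fully below for 17.1%. Cat, which splits hydrogen peroxide into water and oxygen, stood at 70.29, 56.97 and 52.23 TPM at P1 and at 89.4, 98.4, 84.7, 86.5 and 75.4 TPM at P7. All P7 libraries were above all P1 libraries, and Cat rose by 0.60 ± 0.11 (log2, SE, limma adjusted p = 0.000843). Nqo1, a quinone reductase that is a classic NRF2 target, stood at 7.48, 8.10 and 9.77 TPM at P1 and at 10.7, 11.1, 12.7, 11.6 and 12.9 TPM at P7. These groups did not overlap either, and Nqo1 rose by 0.42 ± 0.12 (adjusted p = 0.0124). Gpx3, the secreted plasma glutathione peroxidase, stood at 98.3, 158 and 112 TPM at P1 and at 68.7, 59.3, 72.6, 70.2 and 87.4 TPM at P7. Every P7 library was below every P1 library, and Gpx3 fell by 0.88 ± 0.17 (adjusted p = 0.00117). The same 3 genes were called after median-ratio scaling. The call of Nqo1 was lost without P1 library 1 (adjusted p = 0.0537), within 1 title style (0.34, adjusted p = 0.117) and with library 63 among the P21 cKO in the fit (adjusted p = 0.0554). The other 7 changed by between -0.23 (Gpx1, adjusted p = 0.0859) and 0.10 (Sod2) and were not called.

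From P7 to P21 in WT hearts, 4 genes were called higher (Gpx4, Prdx3, Prdx5 and Nqo1) where 8.1% of all genes were, and 3 lower (Sod1, Cat and Gpx1) where 64.4% were. This comparison shares the P7 WT libraries with the one before. After median-ratio scaling 7 of the 10 genes were higher, the 4 and also Sod2, Gpx3 and Txn2, and none was lower, where 27.6% of all genes were higher and 26.8% lower. The rise is not particular to the 10 genes. Of 23 mitochondrial reference genes 20 were higher and 0 lower after that scaling, and of 10 cardiomyocyte markers 7 and 0. Of all genes called, 11.2% were higher on deposited TPM and 50.7% after that scaling. Prdx3, the mitochondrial peroxiredoxin, stood at 129, 121, 135, 131 and 127 TPM at P7 and at 171, 165, 171 and 174 TPM at P21. The groups did not overlap, where 6.13% of all genes lay fully above. Prdx3 rose by 0.41 ± 0.04 (limma adjusted p = 6.97e-07), or 0.88 relative to the median gene. Prdx5, an atypical peroxiredoxin, rose by 0.26 ± 0.07 (adjusted p = 0.00294), from 208 to 241 TPM to 248 to 282 TPM. Gpx4, which reduces lipid peroxides in membranes and guards against ferroptosis, rose by 0.29 ± 0.05 (adjusted p = 0.000169). It stood at 345 to 399 TPM at P7 and at 430, 430, 478 and 475 TPM at P21. Within 1 title style neither Prdx5 (0.27, adjusted p = 0.131) nor Gpx4 (0.26, adjusted p = 0.0692) was called. Nqo1 stood at 16.4, 17.8, 14.2 and 16.9 TPM at P21, above all P7 libraries, and rose by 0.44 ± 0.09 (adjusted p = 0.000562), or 0.91 relative to the median gene.

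The 3 genes called lower from P7 to P21 were near the median gene: relative to it, Sod1 was at -0.0062, Cat at -0.023 and Gpx1 at -0.20. After quantile normalization Sod1 (-0.14, adjusted p = 0.0154) and Gpx1 (-0.25, adjusted p = 0.0105) were still called lower and Cat (-0.07, adjusted p = 0.474) was not. Gpx1, the abundant cytosolic and mitochondrial glutathione peroxidase, stood at 144 to 167 TPM at P7 and at 91.8, 92.4, 116 and 91.9 TPM at P21. The groups did not overlap, where 54.1% of all genes lay fully below. Gpx1 fell by 0.67 ± 0.08 (limma adjusted p = 1.73e-06), which became -0.09 (adjusted p = 0.451) after median-ratio scaling. Sod1, the copper and zinc dismutase, fell by 0.48 ± 0.06 (adjusted p = 3.17e-06), but its change turned to 0.10 (adjusted p = 0.349) after median-ratio scaling. Its libraries went from 533 to 562 TPM at P7 to 359, 396, 408 and 402 TPM at P21. Cat fell by 0.49 ± 0.09 (adjusted p = 0.000113), and its change turned to 0.08 (adjusted p = 0.372) after that scaling. Sod2, the manganese dismutase of the mitochondrial matrix, stood at 474 to 574 TPM at P7 and at 488, 499, 525 and 565 TPM at P21. Those ranges overlapped, with a change of 0.02 ± 0.06 (adjusted p = 0.826), or 0.49 relative to the median gene. Txn2, the mitochondrial thioredoxin that supplies electrons to Prdx3, changed by 0.06 ± 0.07 (adjusted p = 0.511), or 0.53 relative to the median gene. Gpx3 changed by -0.14 ± 0.13 (adjusted p = 0.357), a value that turned to 0.43 (adjusted p = 0.0179) after median-ratio scaling.

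**Figure D2:**
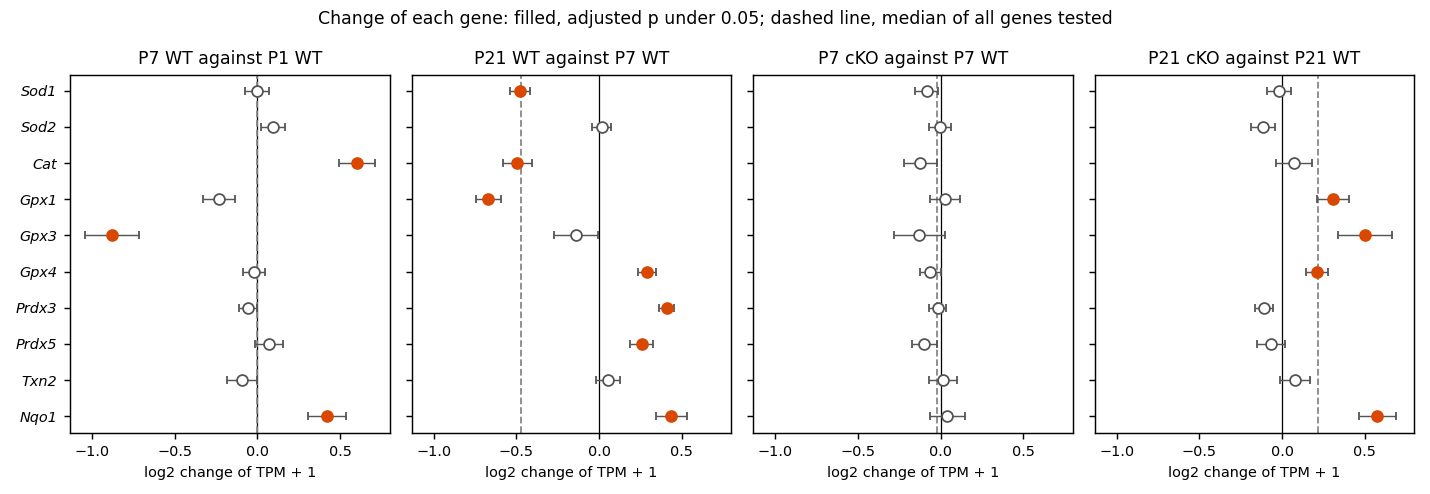
Log2 change of TPM + 1 (horizontal axis) of each gene (rows) in 4 comparisons (panels); points are limma estimates, bars their SE, filled points have an adjusted p under 0.05, and the dashed line is the median of all genes tested. From P7 to P21 the line sits at -0.47 beside Sod1 and Cat, while Prdx3 and Nqo1 lie at 0.41 and 0.44.

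At P7 the cKO and WT hearts gave no call among the 10 genes by limma (0 higher and 0 lower, and 0 at an unadjusted p under 0.05), where 0.0203% of all genes were called higher and 0% lower. No gene's cKO libraries lay all above or all below the WT libraries, where 1.26% of all genes lay above and 2.73% below. The largest value was that of Gpx3, at -0.13 with a 95% interval of -0.46 to 0.20, and the interval of Nqo1 was -0.19 to 0.27. Nqo1 stood at 10.9, 12.4 and 13.8 TPM in P7 cKO, around the P7 WT libraries given above. Sod2 stood at 568, 536 and 511 TPM in P7 cKO, with a 95% interval of its change from -0.15 to 0.14. These intervals give the range of changes left by the spread between libraries, and a p that misses the threshold does not show that the groups are alike.

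At P21, 4 of the 10 genes were called higher in cKO than in WT hearts (Nqo1, Gpx1, Gpx4 and Gpx3) where 19.5% of all genes were, and 0 lower where 1.77% were. After median-ratio scaling 0 were higher and 2 lower (Sod2 and Prdx3), where 4.11% of all genes were higher and 5.34% lower. Of all genes called, 91.7% were higher on deposited TPM and 43.5% after that scaling. This comparison shares the P21 WT libraries with the P7 to P21 one. Nqo1 levels were 25.4, 23.5 and 26.3 TPM in the cKO hearts, against 16.4, 17.8, 14.2 and 16.9 TPM in the WT hearts. The cKO libraries were all above the WT libraries, as for 28.5% of all genes tested. Nqo1 rose by 0.58 ± 0.11 (limma adjusted p = 0.00403), a fold of 1.49 on the TPM + 1 scale. It was called without each library in turn (adjusted p at most 0.0274), within 1 title style (0.66) and without mitochondrial and haemoglobin genes (0.54). The call was lost after median-ratio scaling (0.34, adjusted p = 0.139), after quantile normalization (0.34, adjusted p = 0.155) and with library 63 among the cKO (0.43, adjusted p = 0.0799).

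The glutathione peroxidases Gpx1, Gpx3 and Gpx4 were called beside it. Gpx3 levels were 118, 82.4 and 94.8 TPM in cKO hearts, against 59.52, 59.98, 72.64 and 62.50 TPM in WT hearts, and it rose by 0.50 ± 0.17 (limma adjusted p = 0.0437). Gpx1 levels were 130, 124 and 121 TPM against 91.8, 92.4, 116 and 91.9 TPM, and it rose by 0.31 ± 0.10 (adjusted p = 0.0356). Gpx4 levels were 575, 541 and 522 TPM against 430, 430, 478 and 475 TPM, and it rose by 0.21 ± 0.07 (adjusted p = 0.0366), a value that turned to -0.05 (adjusted p = 0.819) after median-ratio scaling. None of the 3 overlapped between the groups, where 28.5% of all genes lay fully above. With single libraries left out, Gpx3 was called in 8 of 18 runs and Gpx1 and Gpx4 in 10 of 18 each, and within 1 title style none of the 3 was called. Only Nqo1 was left without P7 WT library 1, P21 WT library 2 or 3, or P21 cKO library 55, and 2 genes were left without P7 WT library 76 or 77, P21 WT library 57 or 60, or P21 cKO library 59 or 64. Relative to the median gene the changes of Gpx3, Gpx1 and Gpx4 were 0.28, 0.09 and -0.0074.

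None of the other 6 genes was called on deposited TPM, and among them the mitochondrial Sod2 and Prdx3 were called lower after median-ratio scaling. Prdx3 levels were 158, 165 and 160 TPM in cKO hearts against 171, 165, 171 and 174 TPM in WT hearts. All cKO libraries were below the WT libraries, where 3.07% of all genes lay fully below. The separation was very narrow, with cKO library 59 at 165.44 TPM and WT library 3 at 165.49 TPM. Prdx3 changed by -0.11 ± 0.05 (limma adjusted p = 0.157), and it fell by 0.37 after median-ratio scaling (adjusted p = 0.0108). Sod2 stood at 484, 520 and 503 TPM in cKO, overlapping the WT libraries. It changed by -0.12 ± 0.07 (limma adjusted p = 0.246), and it fell by 0.37 after median-ratio scaling (adjusted p = 0.0316). Sod2 lies on chromosome 17 (13006846 to 13040063, plus strand, mm10), as does Pdpk1. Any part of this shared chromosome in the change of Sod2 was not tested. Prdx5 (264 to 267 TPM in cKO) changed by -0.07 ± 0.08 (adjusted p = 0.566), or -0.29 relative to the median gene. Sod1 (391 to 398 TPM in cKO) changed by -0.02 ± 0.07 (adjusted p = 0.866), or -0.24 relative to the median gene. Txn2 (181, 187 and 204 TPM in cKO, all above WT) changed by 0.08 ± 0.09 (adjusted p = 0.553) and Cat by 0.07 ± 0.11 (adjusted p = 0.638); both values turned to -0.18 after median-ratio scaling. Over the 10 genes the median relative to the median gene was -0.14. Over 23 mitochondrial reference genes it was -0.28, with 1 called higher and 2 lower on deposited TPM and 0 higher and 14 lower after median-ratio scaling.

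**Figure D3:**
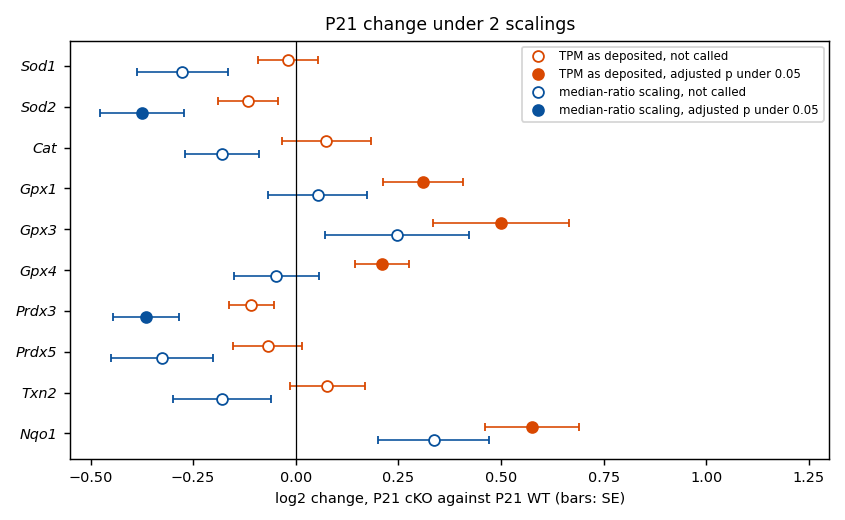
Log2 change between P21 cKO and P21 WT (horizontal axis) of each gene (rows) on deposited TPM (orange) and after median-ratio scaling (blue); bars are SE, and filled points have an adjusted p under 0.05. The 4 filled orange points are Gpx1, Gpx3, Gpx4 and Nqo1, and the 2 filled blue points are Sod2 and Prdx3 on the other side of 0.

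Ratios between members within a library do not depend on a factor that scales the whole library, but quantile normalization can change them. There are 4 of them, chosen after their values were seen, and they are given as a description. Nqo1 over Prdx3 was 0.142 to 0.164 in P21 cKO and 0.0829 to 0.107 in P21 WT, and at P7 it was 0.0811 to 0.111 in cKO and 0.0832 to 0.102 in WT. The summed TPM of Gpx1, Gpx3 and Gpx4 over that of Sod2, Prdx3, Prdx5 and Txn2 was 0.652 to 0.755 in P21 cKO and 0.528 to 0.578 in P21 WT, while P1 WT was at 0.641 to 0.730. Both ratios separated the P21 groups and neither separated the P7 groups. They were chosen with the P21 values known, so this separation adds no support. How many other pairs of genes would separate the groups was not measured. Sod2 over Sod1 was 0.838 to 0.870 in P1 WT, 0.890 to 1.02 in P7 WT and 1.26 to 1.41 in P21 WT, and in P21 cKO it was 1.22 to 1.33. Gpx4 over Gpx1 was 2.23 to 2.61 in P7 WT, 4.12 to 5.17 in P21 WT and 4.30 to 4.43 in P21 cKO. These last 2 ratios separated the WT ages P7 and P21 and overlapped between the P21 groups.

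**Figure D4:**
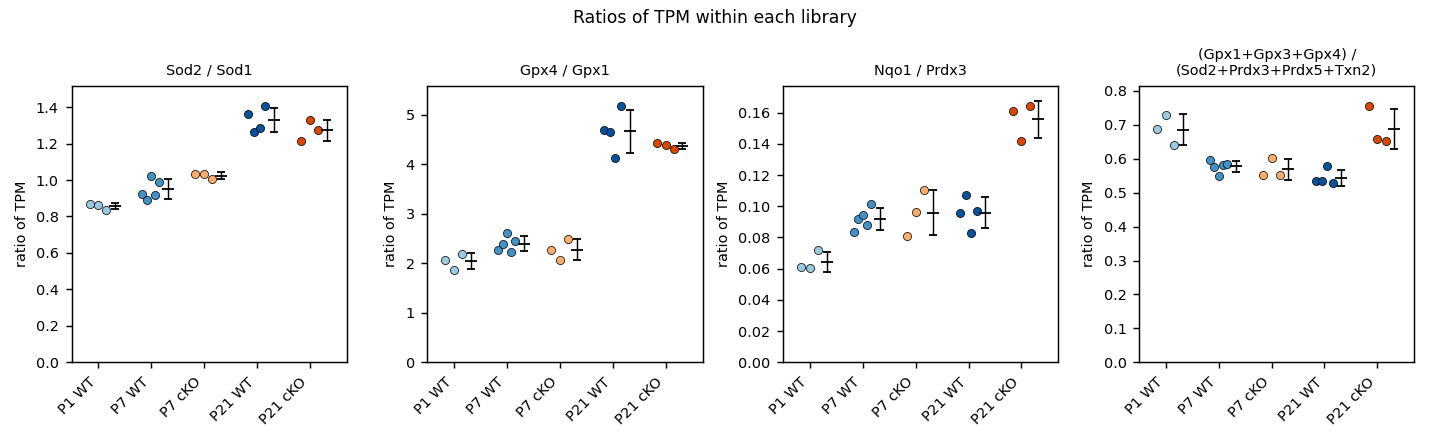
Ratios of TPM within each library (vertical axis, from 0) by group (horizontal axis), for 3 pairs of genes and for summed glutathione peroxidases over 4 other members; points are libraries, bars the mean with its SD. The 3 P21 cKO libraries lie above the 4 P21 WT libraries for Nqo1 over Prdx3 and for the summed ratio, and overlap them for the other 2.

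The cKO effect at P21 minus that at P7 was called for 1 of the 10 genes, higher, where 7.04% of all genes were called higher and 0.52% lower. This was Nqo1, at 0.53 ± 0.15 (limma adjusted p = 0.0394), and after median-ratio scaling it was 0.27 (adjusted p = 0.472). Of all genes called in this comparison, 93.1% were higher on deposited TPM and 40.7% after that scaling. The difference for Nqo1 was called in 8 of 18 runs that left out 1 library, and not without P7 WT library 3, 76 or 77, P21 WT library 2 or 57, P7 cKO library 69 or 75, or any P21 cKO library. Gpx3 (0.63 ± 0.21, adjusted p = 0.073) and Gpx4 (0.27 ± 0.08, adjusted p = 0.0595) were not called, and the value of Gpx4 turned to -0.01 after median-ratio scaling.

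Markers of some other heart cells were called higher in the same P21 comparison, where 19.5% of all genes were and the median gene moved by 0.22 (log2). Of 8 fibroblast markers 7 were higher in cKO (summed 683 to 809 TPM against 456 to 582 TPM in WT), of 8 endothelial markers 7 (517 to 571 TPM against 333 to 448 TPM) and of 8 mural markers 5 (812 to 1101 TPM against 504 to 753 TPM). After median-ratio scaling 4, 1 and 2 of them were higher, where 4.11% of all genes were. None of 8 macrophage markers passed on deposited TPM, and 1 was lower after median-ratio scaling. The red cell sum overlapped (10703 to 20935 TPM against 6225 to 16187 TPM). No fibroblast, endothelial or mural marker was at 0. Their part in the changes of Nqo1 and the glutathione peroxidases was not tested.

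The rest of the antioxidant system is given by lists of related genes, whose counts stand beside 19.5% of all genes called higher and 1.77% lower in P21 cKO (4.11% and 5.34% after median-ratio scaling). Many of the counts are near those shares, and nothing particular to a list is read from them. Of 14 other superoxide and peroxide removing enzymes tested, 4 were higher and 1 lower in P21 cKO, and after median-ratio scaling 0 were higher and 2 lower. Prdx4, the peroxiredoxin of the endoplasmic reticulum, rose by 0.51 (limma adjusted p = 0.00389), and Gpx8, of the same compartment, by 0.48 (adjusted p = 0.003). Msrb1, a selenoprotein that repairs oxidized methionine, fell by 0.62 (adjusted p = 0.0163) and was also lower after median-ratio scaling (adjusted p = 0.0177). Of 16 thioredoxin and glutaredoxin genes 2 were higher and 1 lower (0 and 1 after that scaling). Nxn rose by 0.44 (adjusted p = 0.0126) and Glrx3 by 0.17 (adjusted p = 0.038), while Glrx fell by 0.55 (adjusted p = 0.0253). Of 11 genes of glutathione synthesis and recycling 1 was higher and 1 lower (0 and 2). Of 17 glutathione transferases 2 were higher and 1 lower (0 and 3). Gstp1 rose by 0.35 (adjusted p = 0.003) and Gstm1 by 0.50 (adjusted p = 0.0148). Gsta4, which clears products of lipid peroxidation, fell by 0.53 (adjusted p = 0.0107).

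NADPH feeds both the glutathione and the thioredoxin branch. Of 12 NADPH supply genes 4 were higher and 1 lower in P21 cKO (2 and 1 after median-ratio scaling). Nnt, the transhydrogenase of the mitochondrial inner membrane, had 176, 340 and 339 TPM in cKO hearts against 109, 110, 104 and 127 TPM in WT hearts. It rose by 1.15 ± 0.21 (limma adjusted p = 0.0026) and remained called after median-ratio scaling (0.89, adjusted p = 0.017), with cKO library 55 far below the other two. Nnt also split the P7 WT libraries, at 248 and 223 TPM in libraries 72 and 77 and at 153 to 155 TPM in the other 3. The labels give no strain, and any part of strain in these splits or in the change of Nnt was not tested. Idh2, which makes NADPH in the mitochondrial matrix, rose by 0.51 (adjusted p = 0.000985), and the cytosolic malic enzyme Me1 fell by 0.40 (adjusted p = 0.0263).

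Among regulators, 1 of 9 NRF2 pathway genes was higher in P21 cKO and 0 lower (0 and 1 after median-ratio scaling): Sqstm1, an adaptor that binds KEAP1, rose by 0.30 (limma adjusted p = 0.046). Nfe2l2, which encodes NRF2, changed by 0.24 (adjusted p = 0.2) and Keap1 by 0.09 (adjusted p = 0.453); both were chosen after their values were seen. Of 19 NRF2 target genes tested 3 were higher and 2 lower, and after median-ratio scaling 0 were higher and 2 lower. Of 11 genes of the FOXO and PGC-1 list 4 were higher and 0 lower (0 and 2), among them Akt2 (0.43, adjusted p = 0.001) and Akt1 (0.37, adjusted p = 0.002). Of 14 sources of superoxide and peroxide 4 were higher and 1 lower (1 and 2): Maob, a monoamine oxidase that makes hydrogen peroxide at the outer mitochondrial membrane, fell by 0.98 (adjusted p = 0.000444). Its levels were 4.94, 5.38 and 6.72 TPM in cKO hearts against 11.7, 10.7, 11.5 and 12.7 TPM in WT hearts. Of 9 selenoprotein production genes 2 were higher and 0 lower (1 and 0), led by the selenium carrier Selenop (0.61, adjusted p = 0.0024). Other selenoproteins gave 3 higher and 1 lower of 15 (0 and 1), metal buffering genes 1 and 1 of 8 (0 and 1), and peroxisome genes 1 and 1 of 20 (0 and 6).

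**Figure D5:**
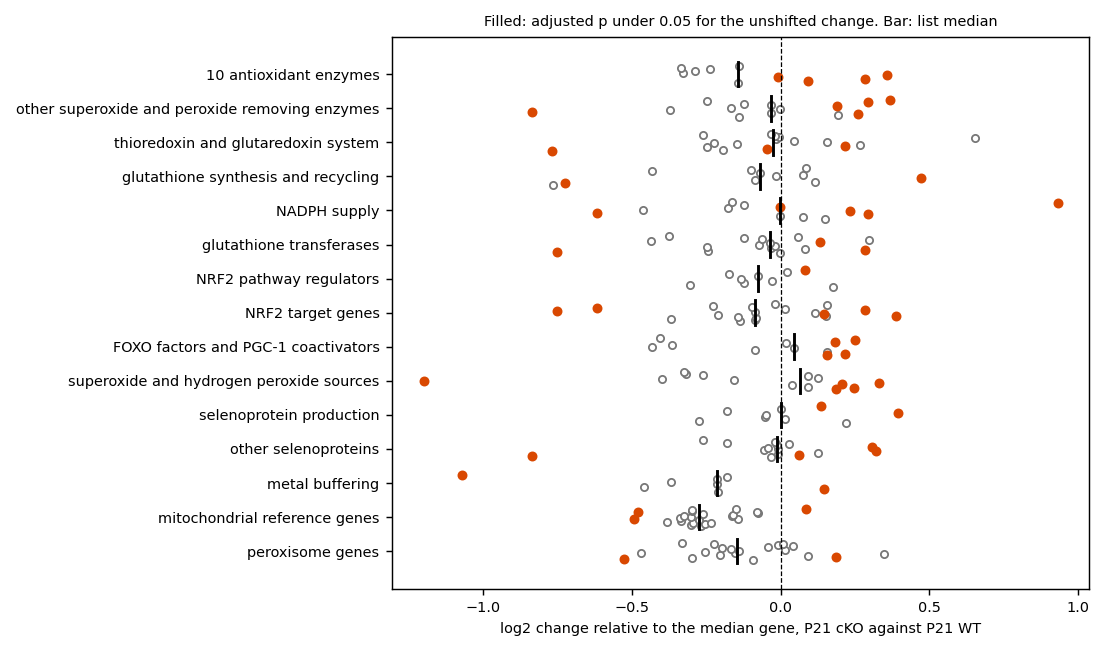
Log2 change between P21 cKO and P21 WT relative to the median gene (horizontal axis) for the tested genes of each list (rows); filled points have an adjusted p under 0.05 for the unshifted change, and black bars are list medians. The bar of the 10 antioxidant enzymes is at -0.14 and that of the mitochondrial reference genes at -0.28.

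Glutathione transferases couple glutathione to reactive compounds. In WT hearts from P1 to P7, 0 of 17 were higher and 11 lower, where 13.8% of all genes were higher and 14.7% lower. From P7 to P21, 10 were higher and 1 lower, where 8.1% of all genes were higher and 64.4% lower. After median-ratio scaling 15 were higher and 0 lower, beside 27.6% and 26.8% of all genes. Gstm1 fell by 1.69 (limma adjusted p = 9.5e-07) and then rose by 1.73 (adjusted p = 1.2e-09); its P7 WT libraries, shared by both values, lay at 25.1 to 31.6 TPM. Mt2, a metallothionein that binds zinc and copper, fell by 4.26 from P1 to P7 (adjusted p = 3.3e-06). It stood at 239, 326 and 294 TPM at P1 and at 12.5 to 19.9 TPM at P7.

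The genes most like each of the 4 members with the widest range of group means were ranked by Pearson r of log2(TPM + 1) over the 18 libraries, among 8908 genes. These libraries share groups and scaling, so r is a description. Nqo1 was most like Acss1 (r = 0.956), Gpr146 (0.941) and Cst3 (0.938). Gpx3 was most like Gde1 (0.925), Hspb1 (0.890) and Tmem120a (0.883), Gpx1 like Eif6 (0.972), Pfn1 (0.970) and Sri (0.967), and Gpx4 like Ctsd, Chchd3 (both 0.947) and Nudt8 (0.943). Among the 10 genes themselves, r was highest for Gpx4 with Nqo1 (0.895) and lowest for Sod1 with Prdx3 (-0.867).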

How the data were processed

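RNA was measured in 19 mouse heart libraries, made with a SMARTer mRNA-Seq kit from RNA iso Plus extracts, per the labels' protocols. Per the submitters' processing notes, TopHat2 2.0.14, Cufflinks 2.2.1 and mm10 were used. The deposited table holds the authors' TPM values, and what made the TPM and with which annotation is not given in the sources used here. TPM keep no depth, so no count test or counting interval was possible. The test planned for FPKM was applied to TPM. The table's 2 columns of no sample were not used.

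In R 4.3.3 with data.table (version 1.17.8), limma 3.58.1 fitted log2(TPM + 1) on group and title style over 18 libraries, using lmFit and a trended eBayes. The filter kept genes reaching 1 TPM in 3 or more libraries, with Benjamini-Hochberg adjustment per comparison. The step was tested on simulated data. The members and 14 other lists were chosen with earlier results of these data known. All members were named. Genes of other lists were drawn, per comparison, from up to 4 passing genes with the smallest p (2 where none passed), and not all of these are in the text. Pdpk1 was named too, as were the 3 genes most like each of 4 members, among genes whose mean reached 5 TPM. Alternatives were 29 planned settings and 1 added after seeing the data, median-ratio scaling without mitochondrial and haemoglobin genes. Promoters are from RefSeq (GRCm38.p6), gene positions from GENCODE M21.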

Additional observations from a re-analysis of the deposited data

Results flagged for a closer look

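In P21 WT, library 57 held 116 TPM of Gpx1, where the other 3 libraries held 91.8 to 92.4 TPM, so it lay far from its group. Of 20 groups of values tested this way, 1 was marked, and chance marks about 1 in 20. Without library 57 the Gpx1 call at P21 remained.

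For Nqo1 the cKO effect differed between ages: the effect at P21 minus that at P7 was 0.53 (log2, interaction contrast in limma, adjusted p = 0.0394). All 3 P21 cKO libraries were above all P21 WT libraries, as for 28.5% of all genes tested, and the P7 groups overlapped. After median-ratio scaling the value was 0.27 (adjusted p = 0.472), and over the alternatives that left out no single library the adjusted p ran from 0.0303 to 0.505. With 1 library left out it ran from 0.0206 to 0.106.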

How the results depend on the processing

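After median-ratio scaling 7 members were higher and 0 lower from P7 to P21 in WT, 0 higher and 2 lower in P21 cKO, and 0 higher for the difference of the cKO effects; the same counts came without mitochondrial and haemoglobin genes (7, 0, 0, 2 and 0). Quantile normalization gave 4 higher from P1 to P7, 6 higher and 2 lower (Sod1 and Gpx1) from P7 to P21, 0 higher and 3 lower in P21 cKO, and 0 higher and 1 lower for the difference. In P21 cKO, removing mitochondrial and haemoglobin genes alone left 1 higher and 1 lower, no filter 1 higher, 1 title style 1 higher and library 63 among the cKO 0; each of these 4 left 0 for the difference. Within 1 title style 1 was higher from P1 to P7 (Cat) and 2 from P7 to P21 (Nqo1 and Prdx3). Library 63 among the cKO left 1 higher from P1 to P7, and among the WT it gave 2 higher for the difference. With each library left out, members higher ran from 1 to 4 (P1 to P7), 1 to 4 (P21 cKO) and 0 to 2 (difference), and members lower from P1 to P7 from 1 to 2.

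Titles share some replicate numbers. Deviations from the group mean correlated at -0.095 to 0.066 over 5 same-numbered pairs and at -0.066 to 0.095 over 11 others. The P7 and P21 groups of that title style hold 2 libraries each, whose deviations are opposite by construction. The correlations therefore cannot show whether same-numbered libraries are paired. A fit with the replicate block gave 2 members higher in P21 cKO, Nqo1 and Gpx3.

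Signs turned as follows (log2). After median-ratio scaling, from P7 to P21 in WT, Gpx3 was 0.43, Sod1 0.10 and Cat 0.080; in P7 cKO Sod2 was 0.024 and Prdx3 0.0076; in P21 cKO Txn2 and Cat were -0.18 and Gpx4 -0.047; for the difference Txn2 and Sod1 were -0.22, Prdx5 -0.25, Cat -0.084 and Gpx4 -0.012. Without mitochondrial and haemoglobin genes as well, the same results turned, at 0.44, 0.10, 0.081, 0.024, 0.0077, -0.18, -0.18, -0.047, -0.22, -0.22, -0.25, -0.084 and -0.012 in that order, and Sod1 from P1 to P7 was 0.00039. With quantile normalization, from P1 to P7 Txn2 was 0.013, Sod1 0.14, Prdx3 0.055 and Gpx4 0.18; Gpx3 was 0.30 from P7 to P21; Sod2 was 0.0086 in P7 cKO; Txn2 was -0.076 and Cat -0.091 in P21 cKO; and Txn2 was -0.095, Sod1 -0.11 and Prdx5 -0.14 for the difference. Removing mitochondrial and haemoglobin genes gave Sod1 0.046 and Gpx4 0.030 from P1 to P7 and Prdx5 -0.022 for the difference. Without the style term Sod1 was 0.036 and Gpx4 0.050 from P1 to P7, Sod2 0.054 and Prdx3 0.0040 in P7 cKO, and Sod1 0.014 and Prdx5 0.0086 in P21 cKO. Within 1 style Nqo1 was -0.013 in P7 cKO and Sod1 0.015 from P1 to P7, and with library 63 as WT Sod1 was 0.00016. With single libraries left out, from P1 to P7 Sod1 ran from -0.068 to 0.097, Gpx4 from -0.066 to 0.059 and Txn2 from -0.18 to 0.00058. From P7 to P21 Txn2 ran from -0.0028 to 0.10 and Sod2 from -0.0077 to 0.038. In P7 cKO Sod2 ran from -0.041 to 0.035, Txn2 from -0.023 to 0.049, Prdx3 from -0.046 to 0.0073, Gpx1 from -0.051 to 0.12 and Nqo1 from -0.034 to 0.12. Cat ran from -0.0065 to 0.21 in P21 cKO and Prdx5 from -0.0033 to 0.061 for the difference. Of the results that turned, Sod1 and Cat from P7 to P21 and Gpx4 in P21 cKO were called on deposited TPM, and only the median-ratio scalings turned these 3. The cause of each change was not tested, and TPM do not show what depth limits.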

Other observations

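P21 library 63, which was put in no group, held 16.1 TPM of Nqo1, 101 TPM of Gpx1, 56.8 TPM of Gpx3 and 432 TPM of Gpx4. It held 389 TPM of Sod1, 548 TPM of Sod2, 61.0 TPM of Cat, 167 TPM of Prdx3, 264 TPM of Prdx5 and 177 TPM of Txn2. Its Nqo1 over Prdx3 ratio was 0.0967, and its level of Nnt was 170 TPM.

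From P7 to P21 in WT hearts, Xdh, which encodes xanthine dehydrogenase, a source of superoxide in its oxidase form, rose by 2.90 (log2, limma adjusted p = 1e-07), from 1.37 to 2.16 TPM to 15.9 to 24.1 TPM. Gstk1, a glutathione transferase of mitochondria and peroxisomes, rose by 1.83 (adjusted p = 1.2e-09), from 12.2 to 15.5 TPM to 46.9 to 53.4 TPM. In P21 cKO, the transferrin receptor Tfrc fell by 0.85 (adjusted p = 0.00495), with 28.3, 49.8 and 37.3 TPM in cKO and 57.3 to 69.4 TPM in WT.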
